A study of Rattus norvegicus with 16 samples.

Results

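Right ventricles labelled RVF+ were compared with control right ventricles across all genes that the array annotation names. The comparison holds 12 of the 16 arrays of the series, namely 5 titled RVF+ (numbered 8 to 12) and 7 titled CON (numbered 1 to 7), and these titles alone chose them. The other 4 arrays, titled RVF, entered the fit and are set beside RVF+ where stated. Genes of fibrosis, the natriuretic peptides and fatty acid use were left aside when genes were chosen for description. Every array was made from total RNA of right ventricular wall of male Wistar rats of 160 to 180 g body weight. Rats had a sham operation or a pulmonary artery band, a constriction against which the right ventricle must eject. The labels assign neither operation to single samples, do not spell out RVF+ or RVF, and name the 7 CON samples as the controls. Whether each sample is a separate animal is not stated. The p-values therefore measure only how far these samples spread, and that spread may be technical.

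The right ventricle has a thin wall and normally works against the low pressure of the lung circulation. Under lasting pressure load its muscle cells grow, shift their channels, junctions and metabolism, and live among more matrix and more immune cells. Array intensities of the whole wall record all of these cell types together.

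Differences are RVF+ mean minus CON mean of log2 intensity, given with the standard error of the limma fit, so that a difference of 1 is 2-fold. A gene is said to have risen or fallen where its limma p-value, adjusted over 17245 genes, was under 0.05. With all arrays 14.1% of genes rose and 13.6% fell, together 27.7%. Without RVF+ 8 these shares were 12.9% and 12%, and 83.5% of all calls still held, with 0 reversed. For 6.96% of genes all 5 RVF+ arrays lay above all 7 CON arrays, and for 7.63% all lay below. The median difference over all genes was -0.012, or -0.106 after centring each array on its median. The counts of families below are read against the shares of 14.1% higher and 13.6% lower. After centring, 1757 of 17245 genes rose and 3577 fell, and family counts after centring are read against these numbers instead. RVF+ 8 stood apart, with a distance from the CON mean (root mean square over genes) of 0.711, against 0.326 to 0.448 in RVF+ 9 to 12 and the RVF arrays.

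The labelled tissue was checked against marker genes. The 11 cardiomyocyte markers had a mean level of 11.76 to 11.84 in CON, 10.95 in RVF+ 8 and 11.53 to 11.67 in the other RVF+ arrays, on a scale where the median gene lay at 5.57. Of these markers Myh6, Tnni3, Ryr2 and Pln fell and Csrp3 rose, the call of Pln ending without CON 7 (-0.26, adjusted p = 0.0517). The 6 lung epithelium markers had means of 3.36 to 3.67 in CON, 3.77 in RVF+ 8 and 3.38 to 4.15 in the others. The mean of 4.15 was that of RVF+ 9, while Napsa, the 1 member that rose, was highest in RVF+ 8. All 11 macrophage and monocyte markers rose, with a mean level of 6.27 to 6.78 in CON, 8.63 in RVF+ 8 and 7.26 to 7.78 in the other RVF+ arrays. Of 8 endothelial markers Esam and Vwf rose, with list means of 7.98 to 8.12 in CON, 7.97 in RVF+ 8 and 8.21 to 8.68 in the others. Of 8 atrial markers 2 rose and 1 fell. Their means were 6.32 to 7.21 in CON, 6.25 in RVF+ 8 and 6.21 to 6.63 in the others. The 2 largest differences of this list were below 0 (-1.52 ± 0.60 and -1.49 ± 0.56). Neither passed (limma adjusted p = 0.0661 and 0.0554). The atrial marker with the widest spread ran from 6.22 to 10.79 within CON. The 8 adipocyte markers had means of 4.69 to 5.90 in CON, highest in CON 5, and 4.65 to 5.15 in RVF+ 9 to 12. Whether samples held unlike amounts of such tissue was not tested. In whole tissue, fewer cells of a type and less RNA per cell cannot be told apart.

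Among genes outside the fibrosis, natriuretic and fatty acid lists, those with a large rise in every RVF+ array included secreted, stress-induced and vascular genes. The rule for large rises and falls took only genes whose RVF+ and CON arrays did not overlap, so their separation is a condition of choice. It also named larger rises than those described next, of up to 3.24, among them Tceal7 (3.06 ± 0.38). Below, CON values are the lowest, median and highest of its 7 arrays, and RVF+ values are in the order RVF+ 8, 9, 10, 11 and 12. Prg4, which encodes the lubricating proteoglycan lubricin, lay at 5.62, 6.40 and 6.74 in CON and at 8.57, 8.69, 8.12, 8.58 and 8.65 in RVF+. The groups did not overlap and RVF+ 8 was no higher than its fellows (2.33 ± 0.19, adjusted p = 5.46e-07, 5.02-fold). Tmem100, an endothelial membrane protein downstream of BMP receptors, lay at 6.32, 6.75 and 7.19 in CON and at 8.69, 8.79, 9.20, 8.53 and 8.46 in RVF+. Again every RVF+ array was above every CON array, and the difference was the same with and without RVF+ 8 (2.03 ± 0.15 and 2.04 ± 0.17). Rnd1, a small GTPase that loosens the actin skeleton, lay at 4.17, 4.54 and 5.06 in CON and at 7.18, 6.07, 5.97, 6.04 and 6.94 in RVF+. Its rise of 1.93 ± 0.21 was 1.75 ± 0.19 without RVF+ 8.

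Further genes with a rise of more than 1.5 in log2 had their RVF+ arrays all above CON. They included the dual-specificity phosphatase Dusp15 (2.10 ± 0.23), the epidermal secreted protein Sbsn (1.93 ± 0.20), the FERM domain gene Frmd5 (1.62 ± 0.20), the Fc receptor-like gene Fcrl2 (2.41 ± 0.22) and C3h15orf48 (1.86 ± 0.19). The calmodulin regulator Pcp4 varied more, with 5.33, 7.59, 5.24, 6.31 and 6.60 in RVF+ against 4.39 to 4.92 in CON. Its arrays did not overlap with CON but spanned more than 2 log2 units among themselves (1.52 ± 0.31). Sodium channel subunit Scn3b (2.19 ± 0.33, and 1.79 ± 0.23 without RVF+ 8) and potassium channel subunit Kcne1 (1.76 ± 0.33) also rose.

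**Figure D1:**
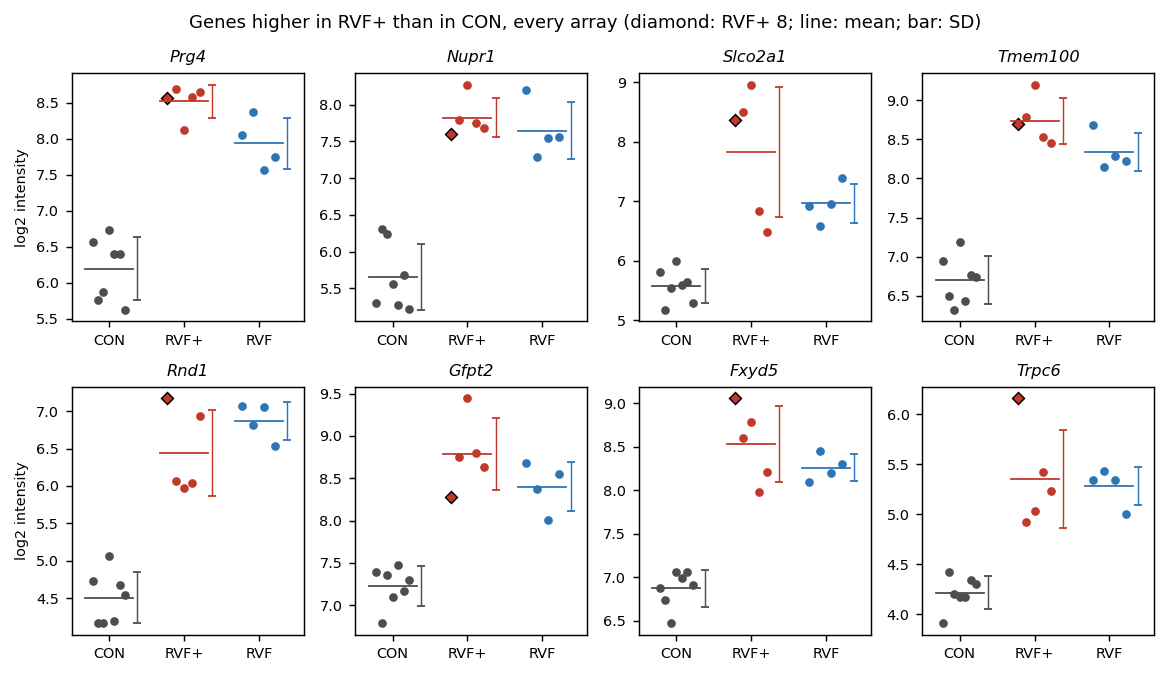
Log2 intensity on the vertical axis for 8 genes that rose, by group on the horizontal axis, with 1 point per array, a line at the group mean and a bar for the SD. For each gene shown the 5 RVF+ arrays sit above all 7 CON arrays, and the diamond of RVF+ 8 is the highest RVF+ array for Rnd1, Fxyd5 and Trpc6 and not for the other 5 genes.

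By size, Tmod4 (-2.78 ± 0.52, and -2.12 ± 0.33 without RVF+ 8), Lsamp (-2.56 ± 0.29), Gabrb2, Cacng6 (-2.48 ± 0.19), Ddit4l (-2.46 ± 0.25) and Scn4b (-2.37 ± 0.23) led the falling genes that the rule named, and those described next had smaller falls. Kcnk2, a stretch- and acid-sensitive background potassium channel also known as TREK-1, lay at 6.24, 6.42 and 6.66 in CON and at 3.70, 4.43, 3.68, 4.60 and 4.53 in RVF+. The groups were more than 1.5 log2 units apart (-2.24 ± 0.15, adjusted p = 2.02e-07, 4.72-fold lower). Aqp7, which passes water and glycerol, lay at 9.78, 10.10 and 10.37 in CON and at 8.34, 8.54, 6.99, 8.88 and 8.31 in RVF+, the lowest array being RVF+ 10. Its difference was -1.90 ± 0.24, or -1.93 ± 0.26 without RVF+ 8. The tyrosine-breakdown enzyme Hpd (-1.89 ± 0.24), the methyltransferase Ntmt2 (-1.65 ± 0.15), the muscle protease-like gene Ky (-2.0 ± 0.26), the receptor tyrosine kinase Ros1 (-1.97 ± 0.26) and the potassium channel Kcnd2 (-1.98 ± 0.31) were below every CON array in 5 of 5 RVF+ arrays, as the rule required. Without RVF+ 8 the falls of Ky and Ros1 were -1.66 ± 0.17 and -1.63 ± 0.16. The glutamate receptor gene Grid1 fell by 1.88 ± 0.24 at its brighter probe set, while its other probe set had a difference of -0.91.

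**Figure D2:**
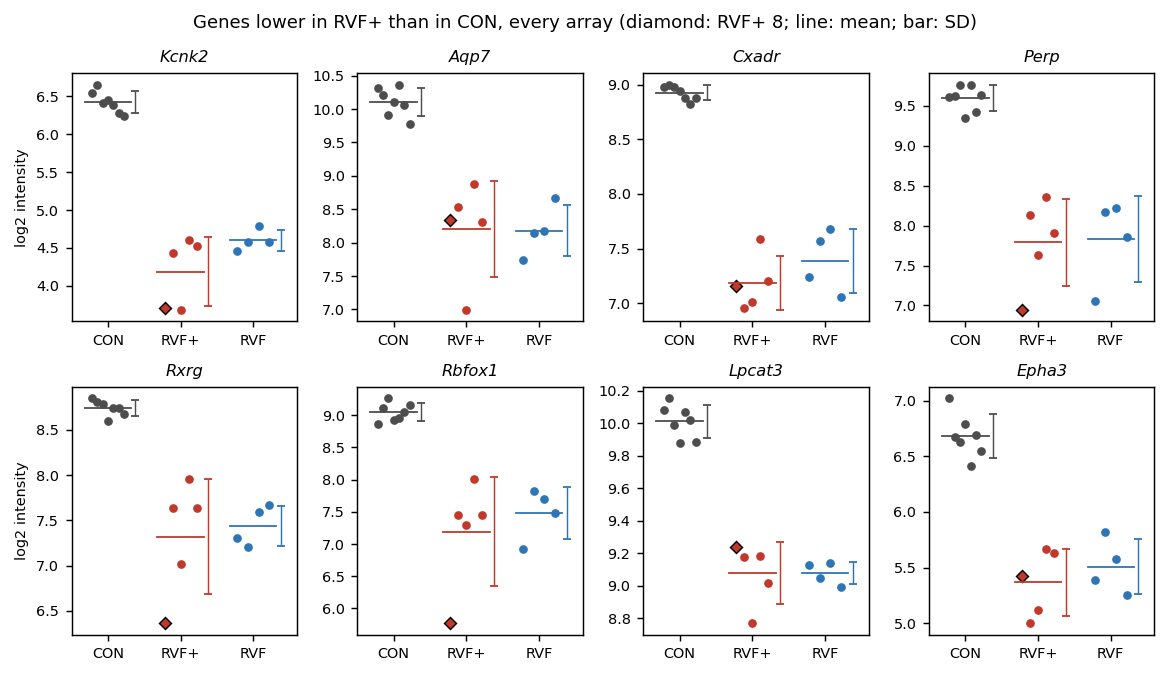
Log2 intensity on the vertical axis for 8 genes that fell, by group on the horizontal axis, with 1 point per array, a line at the group mean and a bar for the SD. All 5 RVF+ arrays sit below all 7 CON arrays for each gene shown, and the diamond of RVF+ 8 is the lowest RVF+ array for Perp, Rxrg and Rbfox1 and not for the other 5 genes.

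Stretch-gated and related cation channels changed in both directions. Of 25 measured TRP, Piezo and TREK channel genes 6 rose and 3 fell, 36% in all, with a median of 0.06, or -0.04 after centring. Piezo2, a channel opened by membrane stretch, lay at 3.59, 3.88 and 4.05 in CON and at 5.26, 4.97, 4.98, 5.07 and 5.13 in RVF+. All RVF+ arrays lay within 0.3 of each other and above CON (1.24 ± 0.09, adjusted p = 3.32e-07). A second probe set, named by the older symbol Fam38b for the same gene, rose by 1.78 ± 0.17. Its relative Piezo1 rose by 0.55 ± 0.12. Trpc6, a receptor-operated calcium-permeable channel, lay at 3.91, 4.21 and 4.42 in CON and at 6.17, 4.92, 5.03, 5.42 and 5.23 in RVF+ (1.14 ± 0.16, and 0.93 ± 0.11 without RVF+ 8). No RVF+ array fell within the CON range. The polycystin genes Pkd1 (0.42 ± 0.10) and Pkd2 (0.51 ± 0.08) and Trpv2 (0.82 ± 0.25, and 0.45 ± 0.09 without RVF+ 8) rose, while Trpc1 (-0.60 ± 0.11) and Trpm4 (-0.45 ± 0.11) fell beside Kcnk2.

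Genes of the sodium pump, acid handling and water transport changed in both directions. Of 23 measured, 4 rose and 6 fell (43.5%), with a median of -0.186, or -0.06 without RVF+ 8. Fxyd5, also called dysadherin, a regulatory subunit of the sodium pump, lay at 6.47, 6.91 and 7.06 in CON and at 9.06, 8.60, 8.78, 7.97 and 8.21 in RVF+. The groups did not overlap (1.66 ± 0.15, adjusted p = 1.54e-06). Its relative Fxyd6 (0.71 ± 0.16) and the pump's beta subunit gene Atp1b3 (0.64 ± 0.11) rose, whereas Fxyd3 fell by 1.42 ± 0.22. The carbonic anhydrases Car4 (-1.61 ± 0.32) and Car14 (-0.83 ± 0.15), the chloride-bicarbonate exchanger Slc4a3 (-0.87 ± 0.12) and its relative Slc26a6 (-0.45 ± 0.12) fell. The potassium-chloride cotransporter Slc12a4 rose by 0.36 ± 0.08.

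Neurotransmitter receptor genes are mostly known from brain, and most lay at low intensity here, where RMA compresses differences. Of 40 measured GABA and glutamate receptor genes 2 rose and 8 fell (25%, median -0.08). Gabrb2, a GABA receptor subunit and the largest fall of the list, lay at 6.57, 7.30 and 7.64 in CON and at 3.70, 3.44, 5.05, 5.38 and 5.32 in RVF+. Every RVF+ array was more than 1 log2 unit below CON (-2.54 ± 0.34, and -2.31 ± 0.33 without RVF+ 8). The subunits Gabrb1 (-0.90 ± 0.20), Gabra3 (-1.03 ± 0.29), Gria4 (-0.81 ± 0.12) and Gria2 (-0.40 ± 0.08) fell. Gabrp, the pi subunit known from tissues outside the brain, lay at 3.19, 3.68 and 4.09 in CON and at 4.67, 4.49, 4.90, 4.87 and 4.46 in RVF+. It rose without overlap (1.02 ± 0.13). The metabotropic receptor Grm4 rose by 0.26 ± 0.07.

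Among genes of the junctions that join heart muscle cells end to end, more fell than rose. Of 21 intercalated disc and cadherin genes 9 fell and 2 rose (52.4%), with a median of -0.22, or -0.17 without RVF+ 8. Cxadr, the coxsackievirus and adenovirus receptor that sits at the disc, lay at 8.82, 8.94 and 9.00 in CON and at 7.16, 6.96, 7.01, 7.59 and 7.20 in RVF+. The groups lay more than 1 log2 unit apart (-1.74 ± 0.11, adjusted p = 2.02e-07), with the same value without RVF+ 8. Perp, a desmosomal membrane protein, lay at 9.35, 9.63 and 9.77 in CON and at 6.94, 8.13, 7.63, 8.35 and 7.91 in RVF+ (-1.81 ± 0.21, and -1.59 ± 0.18 without RVF+ 8). RVF+ 8 was the lowest of its group, and the other 4 also lay below CON. The desmosomal cadherin Dsc2 (-0.86 ± 0.08), the protocadherin Pcdh7 (-0.92 ± 0.12), the alpha-catenin gene Ctnna3 (-0.75 ± 0.13), plakoglobin gene Jup (-0.44 ± 0.10), N-cadherin gene Cdh2 (-0.34 ± 0.08) and vinculin gene Vcl (-0.27 ± 0.07) fell. Cdh13, a cadherin without a cell interior part, rose by 0.70 ± 0.08, and Tmem43 by 0.49 ± 0.11.

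The dystrophin complex, which ties the cytoskeleton of muscle cells to the matrix, had more members that fell than rose. Of 15 measured genes of this complex and of membrane repair 8 fell and 2 rose (66.7%), with a median of -0.27, or -0.24 without RVF+ 8 and again 8 lower. The sarcoglycan gene Sgcb lay at 10.58, 10.63 and 10.68 in CON and at 9.95, 10.17, 9.98, 10.21 and 10.19 in RVF+. The CON arrays were within 0.1 of each other and all RVF+ arrays below them (-0.53 ± 0.06). Sarcoglycan genes Sgca (-0.82 ± 0.11) and Sgcd (-0.64 ± 0.09), sarcospan gene Sspn (-0.83 ± 0.15), dystrophin gene Dmd (-0.62 ± 0.11), dystroglycan gene Dag1 (-0.27 ± 0.06), dystrobrevin gene Dtna (-0.34 ± 0.08) and the syntrophin Sntb1 (-0.61 ± 0.15) fell. The syntrophin Sntb2 rose by 0.44 ± 0.09. Myof, which encodes the membrane repair protein myoferlin, lay at 6.52, 6.64 and 6.82 in CON and at 8.59, 7.66, 8.02, 7.41 and 7.45 in RVF+ (1.19 ± 0.16, and 0.99 ± 0.11 without RVF+ 8). It rose in every RVF+ array.

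Among 14 genes of caveolae and T-tubule membranes 4 fell and 0 rose (28.6%, median -0.16), beside 13.6% of all genes lower, and after centring 7 fell (median -0.255). They were Mtm1 (-0.68 ± 0.11), Nexn (-0.35 ± 0.09), Cav3 (-0.30 ± 0.09) and Cav1 (-0.29 ± 0.09). The call of Cav3 ended without RVF+ 8 (adjusted p = 0.0627) and without RVF+ 11 (adjusted p = 0.0563). Of 19 intermediate filament and lamin genes 4 rose and 0 fell (21.1%, median 0.21, or 0.09 without RVF+ 8). The mesenchymal filament gene Vim rose by 0.52 ± 0.08, the muscle filament gene Synm by 0.84 ± 0.15, the nuclear lamina gene Lmna by 0.46 ± 0.09 and the neuronal filament gene Prph by 0.55 ± 0.12. Beside these junction and membrane genes stood the lower cardiomyocyte marker level given above, and its part in them was not tested.

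Hippo signalling restrains growth through the cofactors Yap and Taz, which act with Tead factors. Of 26 genes of the pathway and its targets 6 rose and 3 fell (34.6%), with 4 higher and 4 lower after centring and a median that moved from 0.09 to -0.003. Tead4 lay at 6.22, 6.30 and 6.48 in CON and at 7.37, 7.17, 7.26, 6.69 and 6.92 in RVF+. All RVF+ arrays exceeded CON (0.74 ± 0.11). Wwtr1, which encodes Taz (0.35 ± 0.07), and the target Ankrd1 (0.51 ± 0.07) rose as well. In RVF+ Ankrd1 lay between 12.62 and 12.64 in all 5 arrays, near the top of the intensity scale. The upstream regulators Frmd6 (-0.50 ± 0.07), Wwc1 (-0.47 ± 0.08) and Amotl2 (-0.38 ± 0.10) fell.

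Ligand and receptor families of cell guidance had members called in both directions, at shares near the 27.7% of all genes. Of 31 semaphorin, plexin and neuropilin genes 4 rose and 6 fell (32.3%), with a median of 0.04, or -0.055 with 2 higher and 9 lower after centring. Sema4d, a membrane-bound semaphorin that signals to plexin B, lay at 7.26, 7.55 and 7.83 in CON and at 6.38, 6.33, 6.34, 6.58 and 6.20 in RVF+. Every RVF+ array was below CON (-1.13 ± 0.10, and -1.14 ± 0.11 without RVF+ 8). Its receptor gene Plxnb1 fell by 0.47 ± 0.14, Sema7a by 0.56 ± 0.10, and Nrp1, a coreceptor of semaphorins and vascular growth factor, by 0.46 ± 0.09. The secreted members Sema3f (0.64 ± 0.12) and Sema3d (0.58 ± 0.17) and the membrane-bound Sema5a (0.57 ± 0.12) rose.

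Ephrins and their receptors signal at contacts between cells. Of 20 measured 2 rose and 4 fell (30%, beside 27.7% of all genes), with a median of -0.03, or 0.008 without RVF+ 8. Epha3 lay at 6.41, 6.67 and 7.03 in CON and at 5.42, 5.00, 5.12, 5.67 and 5.63 in RVF+, and Epha7 at 6.24, 6.50 and 6.81 against 4.89, 4.61, 4.82, 5.72 and 5.11. Both receptors fell without overlap (-1.31 ± 0.13 and -1.51 ± 0.18), and by nearly as much without RVF+ 8 (-1.33 and -1.47). The ligand gene Efnb3 fell by 1.08 ± 0.20 and by 0.80 ± 0.09 without RVF+ 8. The dim ligand genes Efna2 (0.46 ± 0.14) and Efna5 (0.40 ± 0.11) rose.

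Notch genes are known for fate choices in vessels and muscle. Of 26 measured 7 rose and 2 fell (34.6%, median 0.13), and without RVF+ 8 there were 10 higher and 1 lower. After centring 4 were higher and 2 lower. The endothelial receptor Notch4 lay at 6.08, 6.46 and 6.64 in CON and at 6.41, 7.38, 7.34, 6.69 and 6.73 in RVF+, where RVF+ 8 fell inside the CON range and the other 4 above it (0.50 ± 0.15, and 0.62 ± 0.14 without RVF+ 8). Its call ended without RVF+ 9 (0.38, adjusted p = 0.0614) and without RVF+ 10 (0.39, adjusted p = 0.0631). The ligand Jag1 likewise overlapped with CON in part, at 7.48, 7.93, 8.42, 8.24 and 7.64 against 7.36 to 7.65 (0.49 ± 0.13). The sugar transferases Lfng (0.61 ± 0.14) and Mfng (0.37 ± 0.10) and the inhibitors Numb (0.30 ± 0.09) and Numbl (0.48 ± 0.12) rose, while the target Hey2 (-0.61 ± 0.18) fell.

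The BMP family, a branch of TGF-beta signalling, was among the lists with many members called. Of 34 genes 14 rose and 6 fell (58.8%), with a median of 0.24, or 0.19 with 14 higher and 3 lower without RVF+ 8. After centring 9 were higher and 8 lower. Among secreted binders of ligands, Fstl3 lay at 5.75, 6.22 and 6.78 in CON and at 8.09, 7.48, 7.27, 7.41 and 7.74 in RVF+ (1.36 ± 0.16), and Fstl1 rose by 1.10 ± 0.12. Nbl1 (0.99 ± 0.19) and Chrdl1 (1.11 ± 0.32) rose with some overlap, and Bmper (-0.84 ± 0.18) and Chrdl2 (-0.55 ± 0.09) fell. The ligands Bmp4 (0.58 ± 0.17) and Bmp6 (0.56 ± 0.13) rose. Of the intracellular part, Smad1 (0.31 ± 0.07), the inhibitory Smad7 (0.50 ± 0.14) and the target genes Id3 (0.53 ± 0.14) and Id4 (0.69 ± 0.10) rose. Id4 lay at 5.41, 5.55 and 5.75 in CON and at 6.08, 6.44, 6.28, 6.50 and 6.00 in RVF+, with no overlap. The activin receptor Acvr2b fell by 0.49 ± 0.11. The endothelial marker level was higher in RVF+ 9 to 12 and not in RVF+ 8, as given above, and its part in the Tmem100, Notch and BMP results was not tested.

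**Figure D3:**
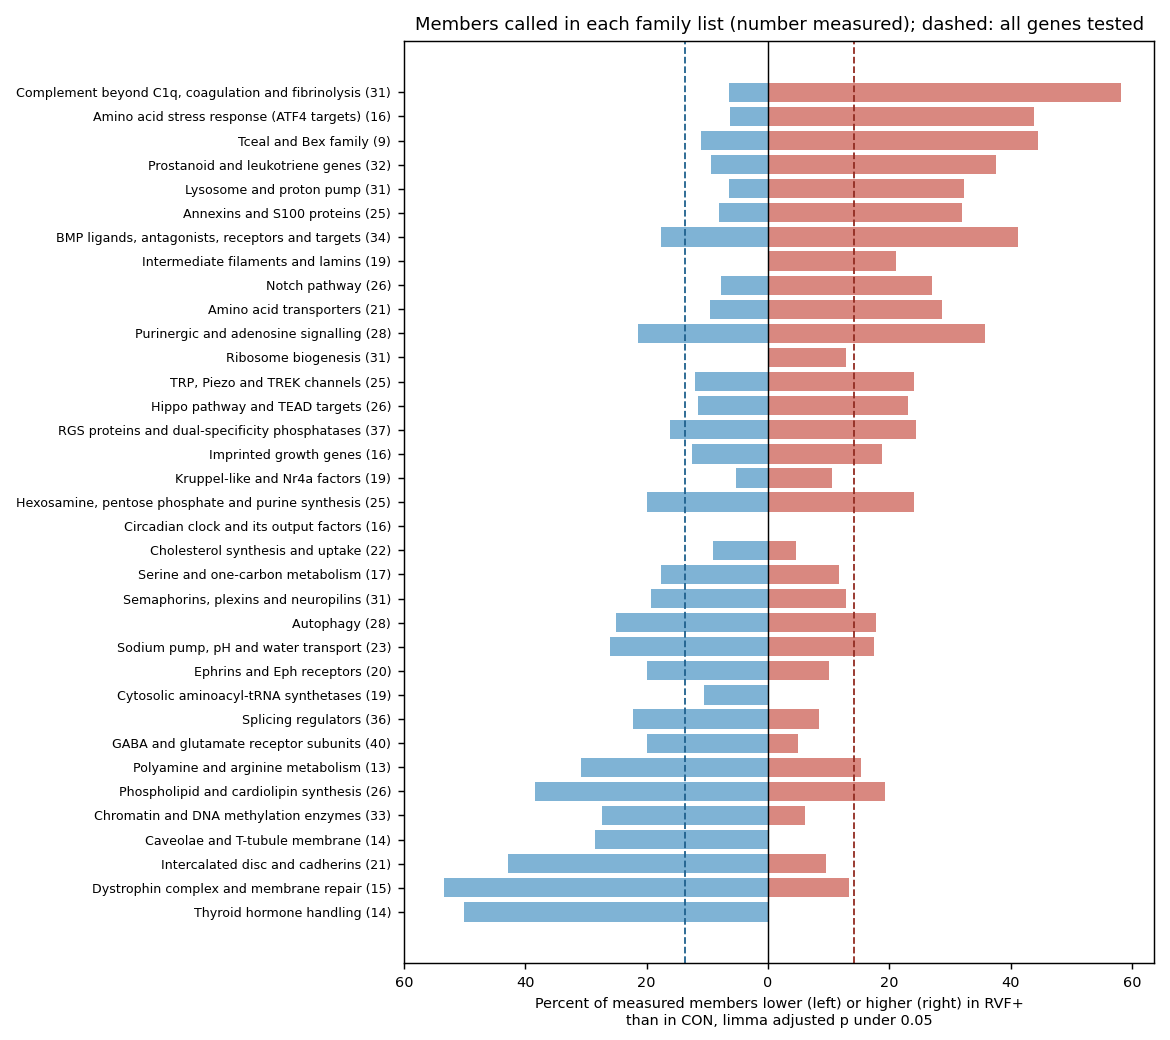
Each of 35 gene families is a row with the number of members measured, and bars show the percent of members lower (left) and higher (right) in RVF+ than in CON by limma. Dashed lines mark 13.6% lower and 14.1% higher over all genes, and the complement and coagulation family reaches furthest to the right.

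When amino acids run short or proteins misfold, the factor ATF4 is translated and raises genes of stress, amino acid supply and tRNA charging through an element with the core TGATGCAA. Of 16 measured genes of an amino acid stress list 7 rose and 1, the lipoprotein receptor Vldlr, fell (50%), with a median of 0.35, or 0.30 without RVF+ 8 and again 7 higher. Of 19 cytosolic aminoacyl-tRNA synthetase genes 0 rose and 2 fell (10.5%), with a median of -0.02, or -0.11 with 4 lower without RVF+ 8. The promoters of these genes are shown because both lists hold the same element. RefSeq promoters of assembly GRCr8, from 250 bases before to 50 after each gene start, were searched for the 8 bases on both strands. The element was in 266 of 33469 promoters (0.795%), in 3 of 14 promoters of the amino acid stress list, in 7 of 17 of the synthetases and in 0 of 15 of serine and one-carbon genes. The share over all promoters counts every promoter entry, while the lists count only the first entry of each gene. Capitals mark the element, which reads TTGCATCA where it lies on the other strand. These are the 250 bases before the start of Nupr1, which rose (chr1:190645902-190646151, minus strand), and of Iars1, which fell (chr17:15193653-15193902, minus strand):
Nupr1: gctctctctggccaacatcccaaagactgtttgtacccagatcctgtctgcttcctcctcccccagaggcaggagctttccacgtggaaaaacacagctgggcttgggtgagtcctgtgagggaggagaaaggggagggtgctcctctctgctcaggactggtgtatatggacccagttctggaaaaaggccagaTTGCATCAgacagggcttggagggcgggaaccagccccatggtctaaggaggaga
Iars1: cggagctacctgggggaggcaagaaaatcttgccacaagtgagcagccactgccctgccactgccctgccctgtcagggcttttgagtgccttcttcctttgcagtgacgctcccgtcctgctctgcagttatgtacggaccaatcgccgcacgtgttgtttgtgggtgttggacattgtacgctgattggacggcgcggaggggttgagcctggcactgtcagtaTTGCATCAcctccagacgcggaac
Shorter windows around the element are shown for further genes of these lists that hold it before their start:
Chac1: ttctccgccgTTGCATCActcctgctag
Fgf21: gacccccccaTTGCATCAttcgtccagg
Mars1: cccgttccggTTGCATCAgcgtgggctc
Tars1: tggcgtcccgTTGCATCAgctggttagc
The element was also found in the promoters of Cars1, Nars1 and Yars1. A match is a description of these letters and not a measured binding site.

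Nupr1, a small nuclear protein induced by stress, lay at 5.23, 5.56 and 6.31 in CON and at 7.60, 7.80, 8.27, 7.75 and 7.69 in RVF+. All RVF+ arrays were more than 1 log2 unit above the highest CON array (2.16 ± 0.20, adjusted p = 1.48e-06), with 2.22 ± 0.21 without RVF+ 8. Fgf21 (0.13 ± 0.09, adjusted p = 0.280) and Chac1 (0.04 ± 0.10, adjusted p = 0.801), whose promoters hold the same element, did not pass. Atf4 itself lay at 7.86, 8.00 and 8.12 in CON and at 8.37, 8.36, 8.29, 8.24 and 8.43 in RVF+, a small rise with no overlap (0.33 ± 0.07). The stress cytokine Gdf15 (1.10 ± 0.19), the mTOR inhibitor Ddit4 (0.74 ± 0.16) and the transcription factors Cebpb (0.62 ± 0.15) and Cebpg (0.38 ± 0.10) rose. Asparagine synthetase gene Asns rose by 0.61 ± 0.20, a call that ended without any 1 of RVF+ 8 and 10 and CON 2, 3, 4 and 7 (0.35 to 0.59, adjusted p between 0.0554 and 0.0786). Ddit3, which encodes CHOP, had 0.39 ± 0.17 (adjusted p = 0.0881) with all arrays and passed without RVF+ 8 (0.61 ± 0.10, adjusted p = 0.000302). It lay at 6.29 in RVF+ 8 and in the others between 7.23 and 7.55.

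Among the synthetases, Iars1, which charges isoleucine tRNA, lay at 8.85, 9.18 and 9.24 in CON and at 8.57, 8.60, 8.47, 8.78 and 8.79 in RVF+ (-0.47 ± 0.08). It fell in every RVF+ array, as did Vars1 in 4 of 5 (-0.33 ± 0.09). Of those with the element, Iars1 fell and the other 6 did not pass, among them Cars1 (0.01 ± 0.09), Mars1 (-0.18 ± 0.07), Nars1 (0.19 ± 0.11), Tars1 (0.20 ± 0.10) and Yars1 (0.18 ± 0.13). Mars1 passed as lower without RVF+ 8 (-0.23, adjusted p = 0.0199), with array weights, after centring, after quantile normalization and with both filters on dim genes (adjusted p between 0.00325 and 0.0467).

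**Figure D4:**
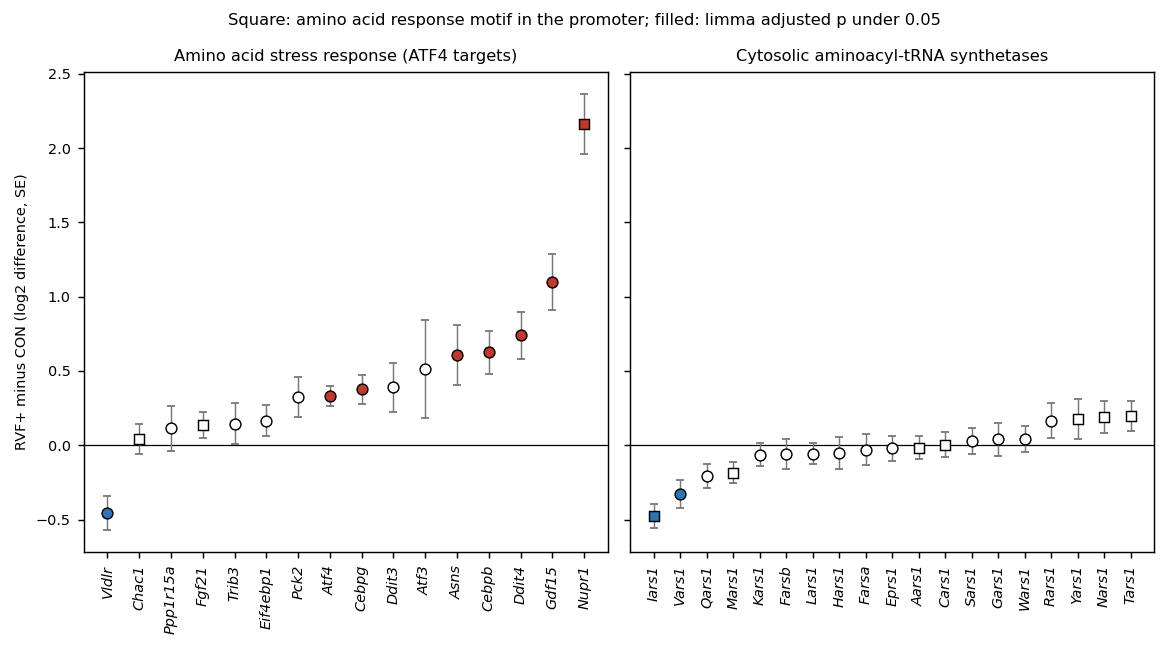
RVF+ minus CON in log2 with its SE on the vertical axis for each measured gene of the amino acid stress list (left) and of the cytosolic tRNA synthetases (right), where filled symbols passed and squares hold the promoter element (circles have no match or no promoter entry). Nupr1 stands highest on the left at 2.16, and on the right the 2 filled symbols, Iars1 and Vars1, lie below 0.

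Other parts of amino acid and one-carbon metabolism moved less uniformly. Of 21 amino acid transporters 6 rose and 2 fell (38.1%, median 0.235), but without RVF+ 8 the counts were 3 and 3, as they were after centring. The taurine transporter Slc6a6 lay at 7.79, 8.06 and 8.14 in CON and at 9.56, 8.82, 9.38, 9.14 and 9.17 in RVF+ (1.20 ± 0.16), with no overlap. The glutamine transporter Slc38a3 fell from 8.73, 8.81 and 9.02 in CON to 7.34, 7.92, 7.47, 8.04 and 8.03 in RVF+ (-1.09 ± 0.12), and its relative Slc38a2 fell by 0.50 ± 0.09. Of 17 serine and one-carbon genes 2 rose and 3 fell (29.4%, median -0.04). The mitochondrial folate enzyme Mthfd2 lay at 5.22, 5.58 and 6.11 in CON and at 7.64, 7.01, 6.83, 5.91 and 6.44 in RVF+, where RVF+ 11 fell within the CON range (1.17 ± 0.22). The cytosolic enzyme Mthfd1 fell by 0.45 ± 0.09, whereas the serine synthesis genes Phgdh (-0.12 ± 0.14) and Psat1 (0.30 ± 0.27) did not pass.

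The hexosamine pathway makes sugar donors for protein glycosylation. Its genes were listed with those of the pentose phosphate pathway and purine synthesis, and of these 25 genes 6 rose and 5 fell (44%, median -0.001). Gfpt2, which catalyses the committed step, lay at 6.79, 7.29 and 7.48 in CON and at 8.28, 8.75, 9.45, 8.80 and 8.63 in RVF+. RVF+ 8 was the lowest of its group and still above CON (1.56 ± 0.17, and 1.68 ± 0.16 without it). Uap1, which forms the activated sugar, lay at 7.48, 7.80 and 7.92 in CON and at 8.46, 8.97, 9.22, 8.61 and 9.28 in RVF+ (1.13 ± 0.15), and its second probe set had 1.115. Ogt, which transfers the sugar to proteins, fell by 0.44 ± 0.07. Among purine synthesis genes Adsl (-0.47 ± 0.09), Gmps (-0.41 ± 0.10), Ppat (-0.41 ± 0.09) and Prps1 (-0.37 ± 0.07) fell and Prps2 rose (0.45 ± 0.11).

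Phospholipid and cardiolipin synthesis genes fell more often than they rose. Of 26 measured 10 fell and 5 rose (57.7%), with a median of -0.14 with and without RVF+ 8, and 13 fell and 2 rose after centring (median -0.235). Lpcat3, which places polyunsaturated chains into phospholipids, lay at 9.88, 10.02 and 10.16 in CON and at 9.24, 9.18, 8.77, 9.18 and 9.02 in RVF+. Its groups were separate (-0.94 ± 0.08, adjusted p = 8.97e-07). The acyltransferases Agpat3 (-1.08 ± 0.11) and Gpam (-0.94 ± 0.14), the phosphatidate phosphatase Lpin1 (-1.0 ± 0.14), Cds1 (-1.05 ± 0.16) and the cardiolipin-remodelling Tafazzin gene (-0.52 ± 0.10) fell. The lipin genes Lpin2 (0.33 ± 0.09) and Lpin3 (0.52 ± 0.14) and the choline kinase Chka (0.42 ± 0.11) rose. The cardiolipin synthase gene Crls1 had -0.23 ± 0.10 (adjusted p = 0.0794), and passed without RVF+ 12 (adjusted p = 0.0137) and after centring (adjusted p = 0.0215).

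Of 22 genes of cholesterol synthesis and uptake 1 rose and 2 fell (13.6%, median 0.02, but -0.07 without RVF+ 8 and -0.08 with 5 lower after centring). Soat1, which esterifies cholesterol, rose by 1.06 ± 0.23, or 0.72 ± 0.10 without RVF+ 8, and the squalene synthase gene Fdft1 fell by 0.63 ± 0.15. Polyamine and arginine genes had 2 of 13 higher and 4 lower (46.2%, median 0.09, or -0.003 after centring). The polyamine-acetylating enzyme Sat1 rose by 0.86 ± 0.16 and the synthesis enzyme Amd1 fell by 0.46 ± 0.10. Paox, an oxidase of acetylated polyamines, fell by 0.40 ± 0.08 at its brighter probe set, while the other had 0.25. Of 31 ribosome biogenesis genes 4 rose and 0 fell (12.9%, median 0.14, or 0.06 without RVF+ 8), namely Myc (0.91 ± 0.18), Wdr12 (0.40 ± 0.11), Pes1 (0.36 ± 0.10) and Npm1 (0.36 ± 0.10).

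Thyroid hormone sets the speed of heart muscle through receptors that pair with retinoid X receptors. Of 14 measured genes listed for its handling 7 fell and 0 rose (50%), with a median of -0.325. The median was -0.27 with the same counts without RVF+ 8, and 7 fell and 0 rose after centring. The 7 were a thyroid hormone receptor, a carrier, retinoid X receptors and coregulators of nuclear receptors. Rxrg lay at 8.60, 8.74 and 8.85 in CON and at 6.36, 7.63, 7.02, 7.96 and 7.63 in RVF+. RVF+ 8 was lowest, and the other 4 also lay below CON (-1.42 ± 0.20, and -1.18 ± 0.13 without RVF+ 8). Slc16a10, which carries thyroid hormones and aromatic amino acids, fell from 7.79, 7.93 and 8.18 in CON to 6.31, 6.85, 6.90, 7.16 and 6.41 in RVF+ (-1.25 ± 0.15). The receptor Thrb fell by 0.85 ± 0.14, Rxra by 0.49 ± 0.09 and Rxrb by 0.35 ± 0.08. The activating deiodinase Dio2 (0.15 ± 0.15) and the inactivating Dio3 (0.36 ± 0.16, adjusted p = 0.112) did not pass, Dio3 passing without RVF+ 11 (0.46, adjusted p = 0.0465), and Dio3 lay at 4.65 in RVF+ 8 against 3.40 to 3.80 in the other RVF+ arrays.

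Circadian clock genes were measured with wide spread within groups. Of 16 measured 0 passed (0 also without RVF+ 8), and at an unadjusted limma p under 0.05 there was 1, Cry1. The output factor Dbp ran from 8.16 to 10.56 in CON and from 8.05 to 9.45 in RVF+ (-0.69 ± 0.41), and the core factor Bmal1 from 5.56 to 7.98 in CON and from 6.63 to 7.65 in RVF+ (0.30 ± 0.38). At these errors differences of this size could not be told from 0. Cry1 had -0.35 ± 0.13 (adjusted p = 0.0635), and passed without CON 3, CON 5 or RVF+ 9 (adjusted p = 0.0232, 0.026 and 0.0321). After centring and after quantile normalization 1 member was lower. Sampling times are not given in the labels. Of 19 Kruppel-like and Nr4a factors 2 rose and 1 fell (15.8%, median 0.13), among them Klf3 (0.46 ± 0.12) and the metabolic regulator Klf15 (-0.67 ± 0.18), and after centring 0 rose and 1 fell.

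Several splicing regulators of muscle fell. Of 36 measured splicing genes 8 fell and 3 rose (30.6%, median -0.06), with 15 lower after centring. Rbfox1 lay at 8.86, 9.05 and 9.27 in CON and at 5.77, 7.45, 7.29, 8.01 and 7.46 in RVF+. The distance of RVF+ 8 from its fellows enlarged the fall, which was -1.85 ± 0.27 with it and -1.50 ± 0.15 without it. Khdrbs3 (-0.89 ± 0.10), Rbm24 (-0.72 ± 0.10), Rbm38 (-0.59 ± 0.14) and the titin splicing factor Rbm20 (-0.55 ± 0.12) fell too, each below every CON array in 5 of 5 arrays. The polypyrimidine tract-binding genes Ptbp1 (0.45 ± 0.13) and Ptbp3 (0.47 ± 0.08) rose, and Ptbp2 fell by 0.37 ± 0.08.

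Of 33 chromatin and DNA methylation genes 9 fell and 2 rose (33.3%, median -0.01). Smyd1, a muscle methyltransferase, lay at 10.06, 10.14 and 10.24 in CON and at 9.10, 9.29, 9.00, 9.39 and 9.81 in RVF+ (-0.83 ± 0.11), with no overlap. The DNA demethylase Tet1 fell from 6.79, 6.87 and 6.99 in CON to 5.29, 6.13, 6.18, 6.43 and 6.10 in RVF+ (-0.86 ± 0.14, and -0.68 ± 0.08 without RVF+ 8). Histone deacetylase genes went both ways, with Hdac11 (-0.84 ± 0.17), Hdac5 (-0.48 ± 0.08) and Hdac2 (-0.24 ± 0.06) lower and Hdac1 (0.47 ± 0.13) higher. Among 16 imprinted growth genes 3 rose and 2 fell (31.2%, median 0.04, or -0.05 after centring). The growth factor Igf2 rose by 0.81 ± 0.25, with RVF+ 10 highest at 8.79 and the others between 6.88 and 7.42. Its clearance receptor Igf2r rose by 0.29 ± 0.07, Grb10 by 0.46 ± 0.09, and the zinc finger gene Zim1 fell by 0.96 ± 0.15. In the Tceal and Bex family 4 of 9 measured rose and 1 fell (55.6%, median 0.16), with 2 higher after centring (median 0.07). Its largest rise was that of Tceal7 (3.06 ± 0.38). Tceal9 lay at 5.70, 5.90 and 6.29 in CON and at 7.17, 6.71, 6.89, 6.60 and 7.11 in RVF+ (0.93 ± 0.14), and the elongation factor relative Tcea3 fell by 0.71 ± 0.09.

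Among lipid mediator genes more rose than fell. Of 32 measured 12 rose and 3 fell (46.9%), with a median of 0.28, or 0.17 with 12 higher without RVF+ 8. Pla2g4a, the phospholipase that frees arachidonic acid, rose by 0.98 ± 0.12. The cyclooxygenase gene Ptgs1 lay at 5.56, 6.15 and 6.36 in CON and at 7.26, 7.62, 8.15, 6.99 and 6.68 in RVF+ (1.29 ± 0.20), with no overlap, and the inducible Ptgs2 rose with overlap in 2 arrays (1.23 ± 0.28). Slco2a1, the prostaglandin transporter, lay at 5.17, 5.59 and 6.00 in CON and at 8.37, 8.50, 8.96, 6.84 and 6.49 in RVF+. Its RVF+ arrays formed a high trio (8, 9 and 10) and a lower pair (11 and 12), all above CON (2.25 ± 0.34). Alox15, a lipoxygenase, lay at 3.95, 4.66 and 4.88 in CON and at 5.84, 7.16, 8.26, 6.79 and 4.61 in RVF+, so that RVF+ 12 was within the CON range and the other 4 above it (2.03 ± 0.49). The leukotriene-pathway protein Alox5ap (1.19 ± 0.16), prostacyclin synthase gene Ptgis (0.72 ± 0.10, but 0.32 at its dimmer probe set), thromboxane synthase gene Tbxas1 (1.02 ± 0.30, or 0.59 ± 0.14 without RVF+ 8) and Ptgds (1.09 ± 0.18) rose. The phospholipase Pla2g5 (-0.58 ± 0.13) and the prostaglandin E synthase gene Ptges2 (-0.62 ± 0.11) fell. The epoxide hydrolase Ephx2 fell by 1.10 ± 0.34 but did not pass without RVF+ 8 (adjusted p = 0.0628) or RVF+ 9 (adjusted p = 0.0627).

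Extracellular ATP and adenosine signal through P2 and adenosine receptors. Of 28 purinergic genes 10 rose and 6 fell (57.1%, median 0.14), with 7 and 4 without RVF+ 8. Entpd1, also called CD39, which breaks down ATP outside cells, lay at 7.63, 8.06 and 8.16 in CON and at 9.39, 9.14, 9.47, 8.89 and 8.92 in RVF+ (1.16 ± 0.12). The groups were apart by more than 0.5. Adenosine deaminase gene Ada rose by 0.92 ± 0.13, and the kinase Adk, which also removes adenosine, fell by 0.70 ± 0.16. The receptors P2ry6 (1.16 ± 0.22, or 0.87 ± 0.13 without RVF+ 8) and P2ry12 (0.96 ± 0.24) rose, and P2ry1 (-0.96 ± 0.12) and the adenosine receptor Adora1 (-0.46 ± 0.10) fell.

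The list of complement beyond C1q, coagulation and fibrinolysis had more members that rose than any other of the 35 lists, 18 of 31, with 2 lower (64.5% called, median 0.69, or 0.53 with 18 higher and 1 lower without RVF+ 8). Serpine2, an inhibitor of thrombin and urokinase, lay at 6.74, 7.11 and 7.53 in CON and at 8.11, 8.97, 8.83, 8.44 and 9.10 in RVF+ (1.51 ± 0.18). The complement regulator Cd55 lay at 6.61, 7.18 and 7.67 in CON and at 8.05, 8.47, 9.24, 8.39 and 8.55 in RVF+ (1.39 ± 0.20). For both genes the groups were separate, and RVF+ 8 was the lowest RVF+ array. The early proteases C1r (0.69 ± 0.07) and C1s (0.76 ± 0.09) and their inhibitor Serping1 (0.76 ± 0.09) rose in all RVF+ arrays. Protease-activated receptors F2r (0.69 ± 0.11) and F2rl1 (1.18 ± 0.17), plasminogen activators Plat (0.84 ± 0.14) and Plau (1.38 ± 0.29, or 0.97 ± 0.15 without RVF+ 8), the urokinase receptor Plaur (1.03 ± 0.19), Serpinf1 (1.10 ± 0.12) and Vwf (1.08 ± 0.17) rose. Tfpi, which inhibits the start of coagulation, fell by 0.50 ± 0.06.

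Of 25 annexin and S100 genes 8 rose and 2 fell (40%, median 0.24). Anxa2, a membrane-binding protein, lay at 8.95, 9.21 and 9.56 in CON and at 11.07, 10.41, 10.28, 10.05 and 10.56 in RVF+ (1.21 ± 0.14), and its partner S100a10 at 8.42, 8.63 and 8.83 against 10.18, 9.48, 9.63, 9.30 and 9.44 (0.95 ± 0.12). Both were separate from CON and highest in RVF+ 8. S100a4 rose by 1.64 ± 0.30, or 1.21 ± 0.13 without RVF+ 8, where it lay at 9.17 against 6.78 to 7.15 in the other RVF+ arrays. S100a1, which aids calcium cycling in heart muscle, fell by 0.77 ± 0.18, or by 0.55 ± 0.12 without RVF+ 8.

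Lysosomal genes had 10 of 31 members higher and 2 lower (38.7%, median 0.11, or 0.015 after centring with 10 higher and 3 lower). The protease genes Ctsk (1.24 ± 0.10), Ctsl (0.82 ± 0.07) and Ctss (1.53 ± 0.21) rose in all RVF+ arrays. Ctsk lay at 6.76, 6.88 and 7.12 in CON and at 8.41, 8.27, 8.19, 7.75 and 8.18 in RVF+, and Ctsl at 9.32, 9.36 and 9.47 against 10.23, 10.07, 10.48, 10.16 and 10.01. Neither gene overlapped. Ctsc fell by 0.50 ± 0.11, or by 0.64 ± 0.07 without RVF+ 8, which at 10.21 lay within the CON range. Gpnmb, a glycoprotein of lysosomes and macrophages, lay at 6.03, 6.33 and 6.59 in CON and at 10.97, 8.07, 8.15, 8.02 and 8.24 in RVF+. It rose by 1.82 ± 0.10 even without RVF+ 8 (2.38 ± 0.37 with it). Of 28 autophagy genes 5 rose and 7 fell (42.9%, median 0.02), but after centring 0 rose and 8 fell (median -0.07). The starting kinase Ulk1 fell by 0.74 ± 0.14, or by 0.55 ± 0.08 without RVF+ 8, and Map1lc3a by 0.60 ± 0.14.

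Among 37 RGS proteins, which shorten G protein signals, and dual-specificity phosphatases 9 rose and 6 fell (40.5%, median 0.04, or -0.06 after centring). Rgs6 lay at 7.84, 8.09 and 8.38 in CON and at 5.64, 6.78, 6.57, 6.54 and 7.04 in RVF+ (-1.57 ± 0.19, and -1.35 ± 0.14 without RVF+ 8), with no overlap, and Rgs7 fell by 0.94 ± 0.13. Rgs1 (1.60 ± 0.36), Rgs18 (1.25 ± 0.26) and Rgs2 (0.88 ± 0.22) rose, and the ERK phosphatase gene Dusp6 rose by 0.79 ± 0.14. The macrophage marker level was higher in all RVF+ arrays and highest in RVF+ 8, with the ranges given above. Platelet markers rose in 3 of 6 cases, with list means of 4.46 to 5.21 in CON and 4.60 to 5.67 in RVF+. Neutrophil markers rose in 0 of 8 cases, with means of 3.63 to 4.47 in CON and 3.85 to 5.40 in RVF+. Of 10 fibroblast markers 5 rose and 2 fell, with means of 7.30 to 7.42 in CON, 7.57 in RVF+ 8 and 7.78 to 8.05 in the others. Red cell markers rose in 3 of 6 cases, with means of 5.59 to 6.17 in CON, 6.31 in RVF+ 8 and 6.04 to 7.53 in the others. The part of these cells in the lipid mediator, purinergic, complement, annexin, lysosome and RGS results was not tested.

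RVF+ 8 differed from the other 4 RVF+ arrays in both directions, described here without a test. Beyond Gpnmb, it was high for the interleukin 1 receptor antagonist Il1rn, at 8.53 against 4.67 to 5.57 in RVF+ 9 to 12 and 3.47 to 4.91 in CON. The replication genes Rrm2 (8.25 against 4.36 to 5.54) and Pclaf (7.91 against 4.36 to 5.65), the metalloprotease Adam12 (7.62 against 3.85 to 4.54), the secreted lectin Reg1a (7.40 against 3.23 to 4.74) and the myeloid receptors Lilrb4 (9.67 against 6.03 to 6.90) and Clec4a2 (6.92 against 3.64 to 4.12) were high too. It was low for Cmbl, at 7.42 against 9.42 to 9.73 in the other RVF+ arrays and 10.26 to 10.53 in CON, for the secretin receptor Sctr (4.35 against 6.07 to 7.28), for Rab3b (4.49 against 6.27 to 6.76), for Myoc (4.01 against 5.24 to 7.48) and for the acetylcholine receptor subunit Chrna1 (4.43 against 5.58 to 7.09). For Sctr, Rab3b, Myoc and Chrna1 the other 4 arrays lay wholly or in part within the CON range.

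**Figure D5:**
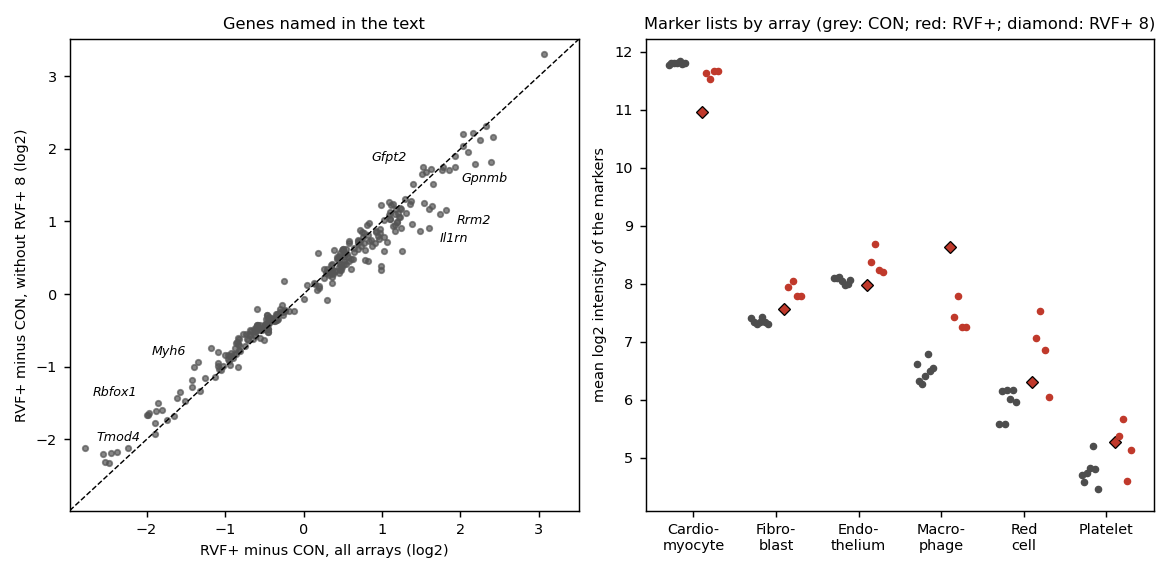
Left, RVF+ minus CON in log2 with all arrays (horizontal) and without RVF+ 8 (vertical) for each gene named here, with a dashed line of equality. Right, mean log2 intensity of 6 marker lists in each CON and RVF+ array, where RVF+ 8 is lowest for cardiomyocytes at 10.95 and highest for macrophages at 8.63.

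RVF+ was then set against RVF, the other group that differed from CON. By limma 0% of genes passed (0 of 17245), also without RVF+ 8, while 7.2% had an unadjusted p under 0.05. The differences of RVF+ and of RVF from CON share the CON arrays and are given side by side only. They were 2.33 and 1.74 for Prg4, 2.16 and 1.99 for Nupr1, 2.03 and 1.64 for Tmem100, -2.24 and -1.82 for Kcnk2, -1.74 and -1.54 for Cxadr and -1.25 and -1.47 for Slc16a10. For Alox15 they were 2.03 and 0.54 and for Slco2a1 2.25 and 1.39, and the RVF+ minus RVF differences of 1.5 (adjusted p = 0.581) and 0.87 (adjusted p = 0.655) did not pass.

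Among the smallest p-values of RVF+ against RVF were those of Cacna1a, a neuronal calcium channel (-0.75, adjusted p = 0.289), the smooth and heart muscle cofactor Myocd (-0.59, adjusted p = 0.289), the nucleoside transporter Slc28a2 (0.65, adjusted p = 0.382), Ndrg1 (0.73, adjusted p = 0.382) and the glucocorticoid-induced Fkbp5 (0.99, adjusted p = 0.382). Slc28a2 lay at 9.62, 9.38, 9.53, 9.11 and 8.93 in RVF+, between 8.41 and 8.85 in RVF and between 8.42 and 8.64 in CON. Fkbp5 lay at 8.68, 8.17, 7.89, 7.42 and 7.38 in RVF+, between 6.62 and 7.15 in RVF and between 6.30 and 6.85 in CON. Myocd lay between 8.14 and 8.63 in RVF+, between 8.78 and 9.08 in RVF and between 8.68 and 8.95 in CON. In each of these 3 genes the RVF+ and RVF arrays did not overlap, but none passed over all genes. They were named for small p-values in this same comparison, so the lack of overlap is no separate support. The share of all genes without overlap between RVF+ and RVF was not counted. Without RVF+ 12, Ace, Ndrg1 and Slc28a2 passed (0.95, 0.86 and 0.74, each with adjusted p = 0.0376), and these 3 were named after their values were seen.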

How the data were processed

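Total RNA of right ventricular wall was measured on 16 whole-transcript arrays, of which 5 RVF+ and 7 CON arrays enter the main comparison. The authors deposited linear intensity values already summarised and normalized with RMA, per the submitters' processing notes, whose version is not given in the sources used here. RMA compresses differences between dim genes, and no detection calls were used. Of 29214 probe sets, 18644 had 1 gene symbol, 962 several and 9608 were not named. The deposited intensity values were taken to the log2 scale, and the brightest probe set by mean was kept for each of 17245 genes, 879 of which had more than 1. limma 3.58.1 in R 4.3.3 fitted group means to all 16 arrays (lmFit, eBayes, 13 residual and 4.45 prior degrees of freedom), with Benjamini-Hochberg adjustment over all genes, and was tested on simulated data. The number of arrays limits the precision.

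The comparison, the 35 gene families (838 genes measured) and the 18 marker lists were chosen with earlier results of these data known. The rule for named genes took the 20 largest rises and 20 largest falls without RVF+ 8 among genes that pass with and without it, do not overlap between groups and lie in none of the lists set aside. It also took the 4 smallest p-values of each family, the 8 genes highest and 8 lowest in RVF+ 8 against its fellows, and the 5 smallest p-values in each direction against RVF. Other family members were named after their values were seen. Promoter sequences came from RefSeq (GRCr8). The promoter window of 1 gene is not reported here. Alternatives covered scaling, filters, probe sets, the fit and each array left out.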

Additional observations from a re-analysis of the deposited data

Results flagged for a closer look

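In 45 of 548 groups of arrays checked for the named genes (8.21%), the highest or lowest array stood away from its group by Dixon's criterion, which chance meets in about 1 of 20 groups. Some of these genes were named because they stood highest or lowest in RVF+ 8, and all genes share the same arrays. The share flagged therefore cannot be read against that rate. RVF+ 8 was the array that stood away in 22 of the 28 RVF+ cases, in part through this choice. It was high for Adam12 (7.62, nearest array 4.54), Clec4a2 (6.92, nearest 4.12), Ctss (10.27, nearest 9.07), Gpnmb (10.97, nearest 8.24), Il1rn (8.53, nearest 5.57) and Lilrb4 (9.67, nearest 6.90). It was also high for Napsa (6.48), Plau (6.92), Psat1 (5.98), S100a4 (9.17) and Trpv2 (7.24). The serine synthesis gene Psat1 did not pass, and the rise of the lysosomal protease gene Ctss remained without the array at 1.25 ± 0.12.

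RVF+ 8 was low for the contractile and calcium-handling genes Myh6 (9.54, nearest 11.36), Tnni3 (10.92, nearest 11.76) and Pln (12.00, nearest 12.53). Low values were also found there for Car14 (7.51), Cmbl (7.42), Ddit3 (6.29), Efnb3 (5.93), Jup (8.49), Plxnb1 (6.70), Rab3b (4.49) and Sspn (8.68).

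Of the other RVF+ arrays, RVF+ 10 was low for Prg4 at 8.12, still above CON, and high for Igf2 at 8.79. RVF+ 11 was low for F2rl1 (6.70) and high for P2ry1 (5.44). RVF+ 12 was high for Adsl (7.77) and Tfpi (8.29).

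Among the CON arrays, CON 4 was high for Frmd5 (5.81), Kcne1 (4.98), Khdrbs3 (8.48), Nexn (10.54), Sbsn (5.48) and Tceal7 (6.20) and low for Cav3 (8.48), Pla2g5 (9.45) and Scn4b (8.06). CON 3 was low for Ephx2 (6.65), Hey2 (6.84) and Pla2g4a (5.97), and CON 6 for Adora1 (4.94) and Car4 (7.96). CON 1 was low for Ryr2 (11.02), CON 2 for Uap1 (7.48) and CON 7 for Wdr12 (6.89).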

How the results depend on the processing

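Leaving out each array in turn gave 2135 to 2606 genes higher and 2076 to 2437 lower in RVF+ than in CON, and 0 to 3 genes changed between RVF+ and RVF. The 3, found without RVF+ 12, were Ace, Ndrg1 and Slc28a2. Centring each array on its median gave 3577 lower and 1757 higher genes, so that the lower share of calls rose. Asking also for a 1.5-fold change left 1004 higher and 718 lower. Quantile normalization, both filters on dim genes, other probe set rules, other moderation, array weights and a fit of only the compared groups kept each count within 1.5 times its value, and RVF+ against RVF stayed at 0 genes. No gene named in the report that passed changed direction under these alternatives, and the call of Paox ended with the mean of its probe sets (-0.07, adjusted p = 0.504). Quantile normalization ended the calls of Asns, Cav1 and Pln. Centring also ended the calls of Chka, Grm4, Klf3, Mfng, Notch4, Numb, Sema3d and Smad7. No paired analysis was possible because the sample numbers 1 to 16 are not shared between groups.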
